A study of Mus musculus with 2 samples.

Results

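The genes examined here encode the proteins that license DNA replication origins, unwind the DNA and copy it at the fork. They were taken as the rows of the count table whose gene name equalled 1 of 43 listed names, and all 43 were found among the 22556 genes of the table. Polyadenylated RNA was sequenced from mouse embryonic stem cells (mESCs) of the line iXist-ChrX-Dom, which is female and of strain Dom/129S x Cast, and in which a TetOn promoter stands in place of the Xist promoter on the Dom/129S allele. Both libraries came from untreated cells at 0 h, so Xist had not been induced. There was 1 group with 2 replicates, no treated group and therefore no comparison between conditions. The feeder fibroblasts had been inactivated with mitomycin C and were removed by pre-plating. The labels do not say whether the replicates came from separate cultures, so the spread between them may be technical.

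Replication starts at origins that are bound by the origin recognition complex (ORC). With the help of Cdc6 and Cdt1, ORC loads the ring-shaped MCM2-7 helicase, which stays inactive until Cdc7 kinase, Cdc45 and the GINS complex turn it on. Polymerase alpha-primase then lays down primers, polymerases delta and epsilon extend them on the sliding clamp Pcna, and RPA covers the exposed single strands. Mouse embryonic stem cells cycle fast with a short G1 phase, and many of these genes are known targets of the E2F transcription factors.

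The libraries held 23716499 and 20275749 counts, and 3 counts corresponded to 0.126 and 0.148 CPM, the count scaled to 1000000 in each library. Levels between genes were compared as TPM, in which each gene's counts are first divided by its exonic length and then scaled in the same way. The ratio between replicates in TPM therefore differs from that in CPM by 1 factor shared by all genes. The cell type label reads mESC to NPC although the time is 0 h. Of 10 markers of ES cells, 9 had a mean of 10 TPM or more and Utf1 was at 0.757 TPM, while 0 of 10 fibroblast markers reached 10 TPM and their summed counts were 91 and 35. Against library totals, 8 of the 10 ES cell markers were lower in replicate 2 and Zfp42 was higher by a two-sided exact binomial test, beside 45.7% lower and 15.1% higher of all genes tested. When the expected ratio followed GC content as described further on, 5 were lower and 2 higher, beside 21.8% and 23.7% of all genes, and Klf4 turned from lower to higher. The summed level of the 10 was 5342 and 4315 TPM in replicates 1 and 2. The log2 ratio of CPM, replicate 2 over replicate 1, ran from -3.06 for Dppa5a and -2.76 for Pou5f1 to -0.15 for Klf4 and 0.05 for Zfp42. The part of these markers in the differences between replicates given here was not tested.

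All 43 replication genes were detected at a mean of 1 TPM or more, which held for 54.3% of all genes in the table. Their median was 94.0 TPM, against 18.4 TPM over the 12250 genes at 1 TPM or more. The median was 102 TPM in replicate 1 and 87.3 TPM in replicate 2. Means ran from 1.45 ± 0.895 TPM (SD, n = 2) for Pold1, the catalytic subunit of polymerase delta, to 669 ± 6.74 TPM for the ORC subunit Orc6. Of the 43, 38 lay above the median of expressed genes, and the 5 below it were Cdc6, Gins2, Rfc2, Pold1 and Pold2. The number above was 39 in replicate 1 alone and 36 in replicate 2 alone. On coding length, added after seeing the data, it was 33, so which genes lay below depended on the length used. In 21 genes the mean was 100 TPM or more. The summed counts of the 43 genes made up 0.623% of replicate 1, with a Wilson 95% interval of 0.620 to 0.627%. In replicate 2 the share was 0.566% (0.563 to 0.570%). Such intervals cover counting error only. In RNA from a whole culture, fewer cells in S phase and less RNA per cell cannot be told apart.

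**Figure D1:**
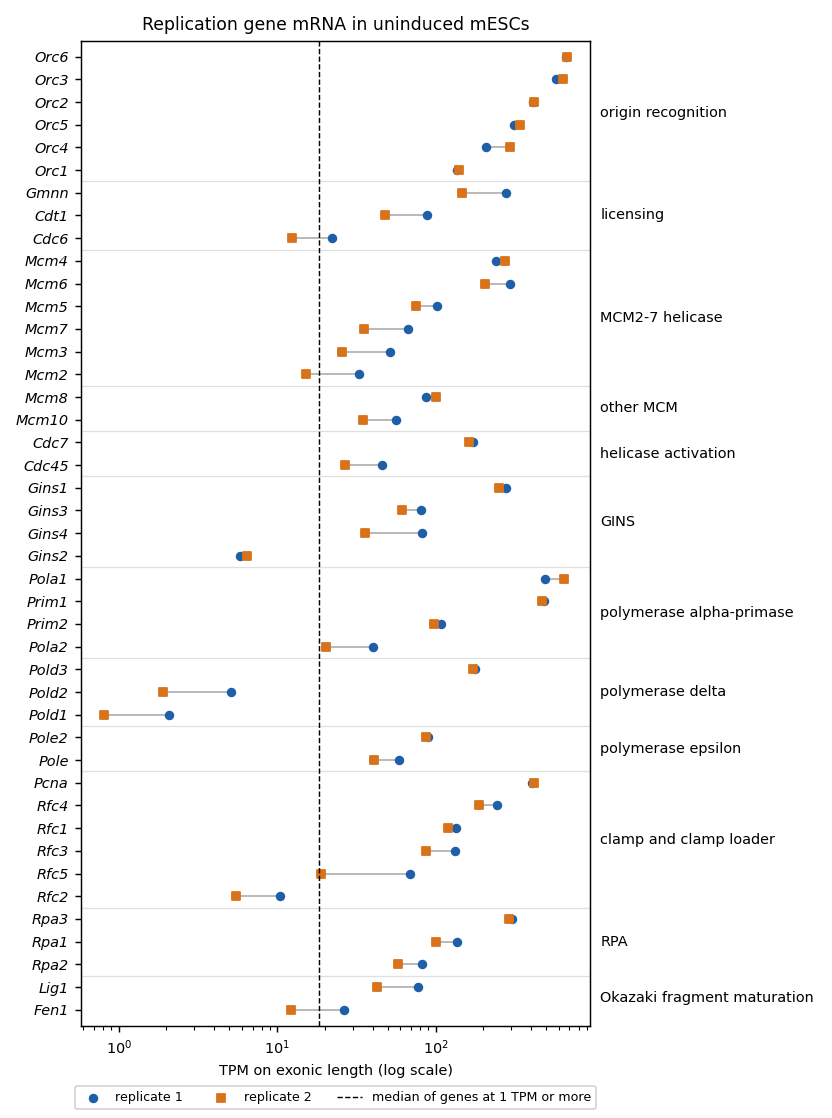
Level of each of the 43 replication genes, grouped by role, in TPM on exonic length (log scale). Circles are replicate 1, squares replicate 2, grey lines join them, and the dashed line is the median of genes at 1 TPM or more, 18.4 TPM. The 6 ORC genes all sit above 100 TPM in both libraries, while Pold1 and Pold2 lie to the left of the dashed line beside Pold3 at 176 TPM.

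The promoters of these genes were searched for short words that transcription factors of the cell cycle are known to bind, a feature that played no part in choosing the genes. RefSeq promoters (GRCm38.p6, 250 bases before to 50 after the start) were given for 35 of the 43 genes, as 44 promoters. An E2F word (TTTGGCGC, TTTCCCGC, TTTGCCGC or TTTCGCGC on either strand, where words may overlap) stood in 16 of the 44, or 36.4% (Wilson 95% interval 23.8 to 51.1%). The share was 2.26% among all 32851 promoters and 4.10% among 11774 promoters of genes at 1 TPM or more. Over the 250 bases before the start alone, the shares were 20.5% of the 44, 1.86% of all promoters and 3.39% of those of expressed genes. Some genes have several promoters in the table, so the 44 are not independent. The 16 genes with an E2F word were Orc1, Orc3, Cdc6, Cdt1, Mcm3, Mcm5, Mcm6, Mcm7, Mcm8, Gins3, Pola1, Pold1, Pold3, Pole2, Rfc3 and Lig1.

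The following 30-base stretches show the E2F words, in capitals, of genes from successive steps of replication, each read 5′ to 3′ along the strand of its gene. Orc1 (chr4:108579416-108579445, plus strand) and Cdc6 (chr11:98908002-98908031, plus) act in origin licensing. Mcm5 (chr8:75109345-75109374, plus) and Mcm6 (chr1:128359797-128359826, minus) are helicase subunits. Pola1 (chrX:93632275-93632304, minus), Pold1 (chr7:44548766-44548795, minus) and Rfc3 (chr5:151651200-151651229, minus) act at the fork.
Orc1: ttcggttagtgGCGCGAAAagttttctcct
Cdc6: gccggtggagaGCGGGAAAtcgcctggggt
Mcm5: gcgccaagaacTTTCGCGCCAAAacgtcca
Mcm6: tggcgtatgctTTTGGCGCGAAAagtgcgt
Pola1: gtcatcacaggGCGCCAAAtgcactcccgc
Pold1: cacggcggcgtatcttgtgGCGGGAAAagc
Rfc3: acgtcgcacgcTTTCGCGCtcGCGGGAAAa
In Mcm5 and Mcm6 words on opposite strands overlapped to form 1 longer run. Rfc3 had 2 separate words within the 30 bases. Positions are counted from the start that each RefSeq promoter uses. The capitals begin 27 bases before it in Orc1, 138 bases before it in both Cdc6 and Pola1, and 40 bases after it in Pold1. For Cdc6 that start and the stretch shown lie inside the gene as annotated for the counts, which begins at chr11:98907888.

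An E2F word did not separate high from low genes. The median level was 88.4 TPM for the 16 genes with a word (1.45 to 606 TPM) and 127 TPM for the 19 genes whose promoters had none (3.50 to 669 TPM). The lowest and the highest of the 16 were Pold1 and Orc3.

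Words of 4 other kinds were counted in the same promoters. CCAAT, the word bound by NF-Y, stood in 54.5% of the 44 promoters, 37.4% of all promoters and 38.4% of those of expressed genes. The GC box GGGCGG, bound by Sp1 and its relatives, stood in 72.7%, against 35.7% of all promoters and 62.7% of those of expressed genes. TTTGAA, the cell cycle homology region (CHR) of genes that peak late in the cycle, stood in 15.9%, against 17.9% and 12.1%. TATAAA, the TATA box, stood in 6.82%, against 13.6% and 7.12%. All 5 kinds of word were sought on both strands, and a match in the letters does not show binding.

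**Figure D2:**
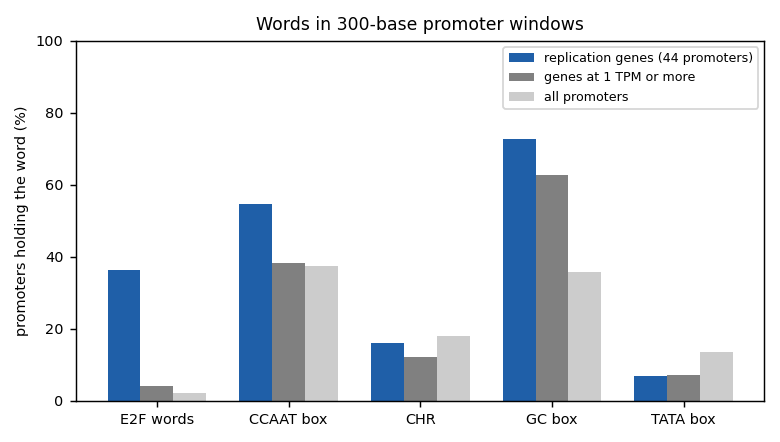
Share of promoters (%) that hold each kind of word, for the 44 promoters of replication genes (blue), promoters of genes at 1 TPM or more (dark grey) and all promoters (light grey). E2F words stand in 36.4% of the replication gene promoters and in 4.10% and 2.26% of the others, while the CHR share of 15.9% lies between the 12.1% and 17.9% of the others.

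ORC subunits were high in both libraries, with a median of 371 TPM over the 6 of them. Orc6 was at 664 and 674 TPM in replicates 1 and 2. Orc3 was at 576 and 636 TPM, and Orc2 at 412 and 419 TPM. On exonic length these 3 genes did not overlap, but Orc2 was above Orc3 on coding length (329 against 250 TPM) and on span length (182 against 151 TPM). Orc5 was at 312 and 343 TPM and Orc4 at 207 and 297 TPM. Orc1, the subunit that in many cells is limited to G1 by degradation of its protein, was lowest of the 6 at 136 and 141 TPM. Orc4 was above Orc5 on both other lengths, and on span length Orc5 was the lowest, at 56.2 TPM against 61.6 TPM for Orc1. The highest subunit was 4.83 times the lowest on exonic length, 8.19 times on coding length and 11.4 times on the deposited span length. With 2 replicates a side, an exact permutation test cannot give a two-sided p below 0.333, so the order of subunits was not tested. Neighbours are called apart where their replicate ranges do not overlap. This rule takes no account of subunits being measured in the same 2 libraries, so subunits that overlap can still keep 1 order in both.

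The licensing factors Cdc6 and Cdt1 and the inhibitor geminin were each lower in replicate 2. Cdc6, the ATPase that joins ORC to load MCM, had 802 and 361 counts, or 22.3 and 12.5 TPM. Cdt1, which brings MCM to the origin, was at 87.9 and 48.1 TPM. Geminin (Gmnn), the inhibitor that binds Cdt1 after licensing, was at 280 and 147 TPM. On exonic length geminin mRNA exceeded Cdt1 mRNA without overlap, while on span length Cdt1 was the higher, at 150.3 TPM on average against 129.8 TPM.

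In the MCM2-7 helicase, a ring with 1 copy of each subunit, mRNA differed 10.7-fold between the highest and the lowest subunit. Mcm4 was at 241 and 274 TPM and Mcm6 at 293 and 204 TPM, ranges that overlapped. Mcm5 followed at 102 and 75.4 TPM. Below it Mcm7 was at 67.2 and 35.2 TPM, Mcm3 at 51.3 and 25.8 TPM and Mcm2 at 33.0 and 15.1 TPM, each overlapping its neighbour. Within each library the order was still Mcm7, Mcm3, Mcm2. The ring therefore fell into a high pair, Mcm4 and Mcm6, and 4 lower subunits in both libraries, although Mcm7 was above Mcm5 on span length (108 against 84.0 TPM). The ratio of highest to lowest was 8.87 in replicate 1, 18.1 in replicate 2 and 14.7 on coding length. Of the Mcm7 transcript, 26.0% of 50-base words also occurred in pseudogene transcripts, so its counts are uncertain.

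Mcm8, which works in a separate helicase with roles in recombination, was at 87.6 and 100 TPM. Mcm10, a factor that helps to start the assembled helicase, was at 56.1 and 34.9 TPM. Cdc7, the kinase that phosphorylates MCM, was at 172 and 163 TPM, above Cdc45 at 45.6 and 26.7 TPM. Cdc45 and GINS complete the active helicase.

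GINS subunits spanned 43.1-fold on exonic length. Gins1 was highest at 276 and 251 TPM, Gins3 (81.0 and 61.3 TPM) and Gins4 (82.3 and 35.9 TPM) overlapped, and Gins2 was lowest at 5.80 and 6.45 TPM. This spread depended on the length used. The annotated exons of Gins2 cover 3900 bases and its coding sequence 555, and on coding length the highest subunit was 11.3 times the lowest. On span length Gins3 was above Gins1. Gins2 had 170 and 152 counts, the fewest of the 4 subunits.

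Polymerase alpha-primase, which makes the RNA-DNA primer, differed 18.7-fold between subunits, and neighbours in its order did not overlap on exonic length. Pola1, the catalytic subunit, was at 489 and 645 TPM, and Prim1, the subunit that makes the RNA primer, at 484 and 466 TPM. The primase partner Prim2 was at 108 and 98.4 TPM. Pola2, the regulatory B subunit, was lowest at 40.4 and 20.3 TPM. The ratio of Pola1 to Pola2 was 12.1 in replicate 1 and 31.7 in replicate 2. On span length Prim1 (265.5 TPM) was above Pola1 (48.4 TPM), and Prim2 was the lowest of the 4.

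Pola1 is the X-linked gene of the 43 (chrX:93304765-93632155, minus strand, mm10). When the 530 X-linked genes at 1 TPM or more were put in 3 equal groups of low, medium and high expression, Pola1 fell in the high group, which began at 83.6 TPM, and ranked 33 from the top. On span length it fell in the medium group, at rank 198 of 532. Its span of 327391 bases is far longer than its 5346 exonic bases. Reads in introns were counted for a gene too, although the study describes these libraries as holding few of them.

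Of the 8 complexes, polymerase delta held the largest spread on exonic length, 121-fold. Pold3, an accessory subunit that binds Pcna, was at 178 and 173 TPM, from 4172 and 3260 counts. Pold1 had 54 and 17 counts, or 2.08 and 0.814 TPM, and Pold2, the B subunit, had 63 and 19 counts, or 5.09 and 1.91 TPM. Pold1 and Pold2 overlapped each other, although Pold2 was the higher in each library, and both lay far under Pold3 in both libraries. Highest over lowest was 85.7 in replicate 1, 212.6 in replicate 2, 45.2 on span length and 260.5 on coding length, so the gap stood under each of these choices while its size moved. On span length polymerase alpha-primase had the wider spread, at 54.0-fold. Pold4, the small subunit, had 10 and 2 counts. In polymerase epsilon, which copies the leading strand, Pole2 was at 89.0 and 87.3 TPM and the catalytic subunit Pole at 58.4 and 40.6 TPM. They differed 1.78-fold on average and 2.15-fold in replicate 2, and on span length Pole was the higher. These are its only subunits among the 43. Of its further subunits, Pole3 was at 17.4 and 3.57 TPM and Pole4 at 136 and 143 TPM, so the whole complex was spread more widely.

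The transcripts of these subunits differ in base composition, shown here by the 120 coding bases whose GC content is closest to that of the whole coding sequence, with G and C in capitals and positions counted from the first coding base. Pold1 (chr7:44532743-44548815, minus strand, coding bases 277 to 396) is 60.8% GC in this stretch, Pold2 (chr11:5872179-5878256, minus, bases 49 to 168) 58.3% and Pold3 (chr7:100082112-100121500, minus, bases 220 to 339) 48.3%. Orc4 (chr2:48902753-48949267, minus, bases 19 to 138) has 36.7% and is shown for contrast.
Pold1: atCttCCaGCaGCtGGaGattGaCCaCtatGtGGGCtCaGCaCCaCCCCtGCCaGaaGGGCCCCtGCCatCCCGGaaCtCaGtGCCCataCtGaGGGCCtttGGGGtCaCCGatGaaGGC
Pold2: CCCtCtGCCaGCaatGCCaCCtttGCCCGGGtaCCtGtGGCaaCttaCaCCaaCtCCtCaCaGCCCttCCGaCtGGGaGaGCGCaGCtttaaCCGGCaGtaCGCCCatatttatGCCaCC
Pold3: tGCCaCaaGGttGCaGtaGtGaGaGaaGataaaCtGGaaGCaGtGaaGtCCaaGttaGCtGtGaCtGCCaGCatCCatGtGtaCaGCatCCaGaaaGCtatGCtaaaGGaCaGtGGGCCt
Orc4: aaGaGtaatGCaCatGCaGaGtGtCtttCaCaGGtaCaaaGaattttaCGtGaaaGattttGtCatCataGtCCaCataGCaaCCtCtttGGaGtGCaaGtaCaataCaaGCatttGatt
The coordinates are those of the whole genes on mm10.

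The clamp and its loader also differed within themselves. Pcna, the sliding clamp, was at 404 and 419 TPM, although 31.8% of the 50-base words of its transcript also occurred in pseudogene transcripts. In the RFC loader, which opens the clamp, Rfc4 was at 243 and 188 TPM, Rfc1 at 134 and 120 TPM and Rfc3 at 132 and 86.9 TPM. Rfc5 was at 68.9 and 19.0 TPM, and Rfc2 at 10.4 and 5.53 TPM. On exonic length Rfc1 and Rfc3 overlapped, although Rfc1 was the higher in each library, and the other neighbours did not overlap. On coding length Rfc5 was just above Rfc3 (54.3 against 52.0 TPM). The spread over the 5 subunits was 27.0-fold on exonic length and 6.65-fold on coding length, since the annotated exons of Rfc2 cover 4995 bases and its coding sequence 1047.

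RPA had a narrower spread of 4.25-fold, with Rpa3 at 304 and 289 TPM, Rpa1, the large DNA-binding subunit, at 137 and 100 TPM and Rpa2 at 81.9 and 57.6 TPM. Of the Rpa3 words, 5.06% were shared with pseudogenes. The other 2 genes finish Okazaki fragments. DNA ligase 1 (Lig1) was at 78.0 and 42.6 TPM, and the flap nuclease Fen1 at 26.6 and 12.2 TPM.

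**Figure D3:**
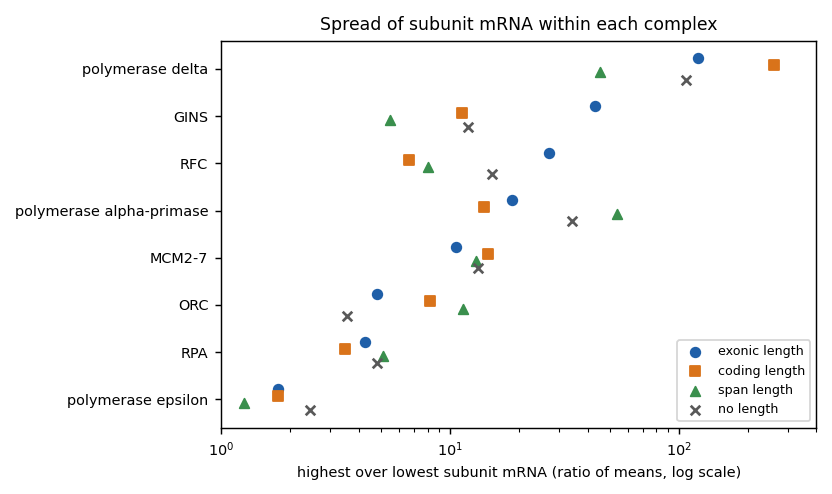
Ratio of the highest to the lowest subunit mRNA in each of 8 complexes (log scale), from the means of 2 replicates, with counts divided by exonic length (circles), coding length (squares), span length (triangles) or no length (crosses). Only subunits among the 43 genes are counted, so polymerase epsilon is Pole and Pole2 alone and polymerase delta is without Pold4. Polymerase delta lies at 45.2 or more on every length choice, and the Pole and Pole2 pair at 2.46 or less. GINS moves from 43.1 to 5.45 and RFC from 27.0 to 6.65.

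The 2 libraries differed in these genes by more than counting error. Each gene's counts were compared with the ratio of library totals by a two-sided exact binomial test with Benjamini-Hochberg adjustment over 14536 genes with at least 10 counts, which compares the libraries and not conditions. Of the 43 genes, 33 (76.7%) were lower in replicate 2 and 5 (11.6%) were higher. Over all genes tested, 45.7% were lower and 15.1% higher. Shares over all genes, here and in the other paragraphs, are not matched for counts. The 43 genes had the higher median level, and the exact test calls genes of more counts more readily in either direction. The median log2 ratio of CPM, replicate 2 over replicate 1, was -0.52 for the 43 genes and -0.31 for all genes tested. With edgeR's TMM factors, which shift every log2 ratio by 0.22, 24 genes were lower and 12 higher, against 30.7% and 27.0% of all genes. With DESeq2's size factors, which shift it by 0.31, 24 were lower and 16 higher, against 26.1% and 31.6% of all genes.

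At least 2-fold lower values in replicate 2 were found in 10 of the 43 genes (23.3%), against 20.0% of all genes tested. None of the 43 was at least 2-fold higher in replicate 2, against 0.640% of all genes. The 10 were Gmnn, Mcm2, Mcm3, Mcm7, Gins4, Pola2, Pold1, Pold2, Rfc5 and Fen1. The furthest was Rfc5, with 1678 counts in replicate 1 and 371 in replicate 2, a log2 ratio of -1.95 (exact binomial test, adjusted p = 3.8e-154). Gins4 had 835 and 293 counts (log2 ratio -1.28) and Mcm2 had 837 and 308 (-1.21). In the other direction, Orc4 had 7315 and 8444 counts, a log2 ratio of 0.43 (exact binomial test, adjusted p = 1.6e-77). Pola1 had 19674 and 20839 counts, a log2 ratio of 0.31, and Mcm4 had 6490 and 5950, a log2 ratio of 0.10. Mcm4 has fewer raw counts in replicate 2 and yet a positive ratio, since that library is the smaller.

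GC content moved with this difference. Over the 43 genes Spearman's correlation between log2 ratio and the GC content of the longest transcript was -0.73, and over the 9691 genes whose counts reached 50 in both libraries it was -0.65. These are descriptions across genes of the same 2 libraries. The 10 genes of lowest GC content (34.2 to 44.0%) were Rpa3, Orc4, Orc5, Orc3, Pola1, Prim2, Rfc3, Rfc4, Cdc7 and Prim1. Their median log2 ratio was -0.15, and 0 of them were at least 2-fold lower in replicate 2. The 10 of highest GC content (51.7 to 61.0%) were Mcm2, Mcm5, Mcm3, Mcm7, Gins2, Lig1, Fen1, Cdt1, Pold2 and Pold1. Their median was -1.05, and 6 were at least 2-fold lower.

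Level followed GC content as well. The 10 genes of lowest GC content had a median of 274 TPM (103 to 606 TPM) and the 10 of highest a median of 31.3 TPM (1.45 to 88.6 TPM), ranges that did not overlap on exonic length but did on coding length, span length and in CPM. Spearman's correlation between level and GC content was -0.78 over the 43 genes and -0.42 over the 9691 genes, again as a description. The Pold1 and Orc4 stretches printed above come from the GC-rich and the GC-poor end. The part of GC content in the levels of single genes, the low polymerase delta subunits among them, was not tested.

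**Figure D4:**
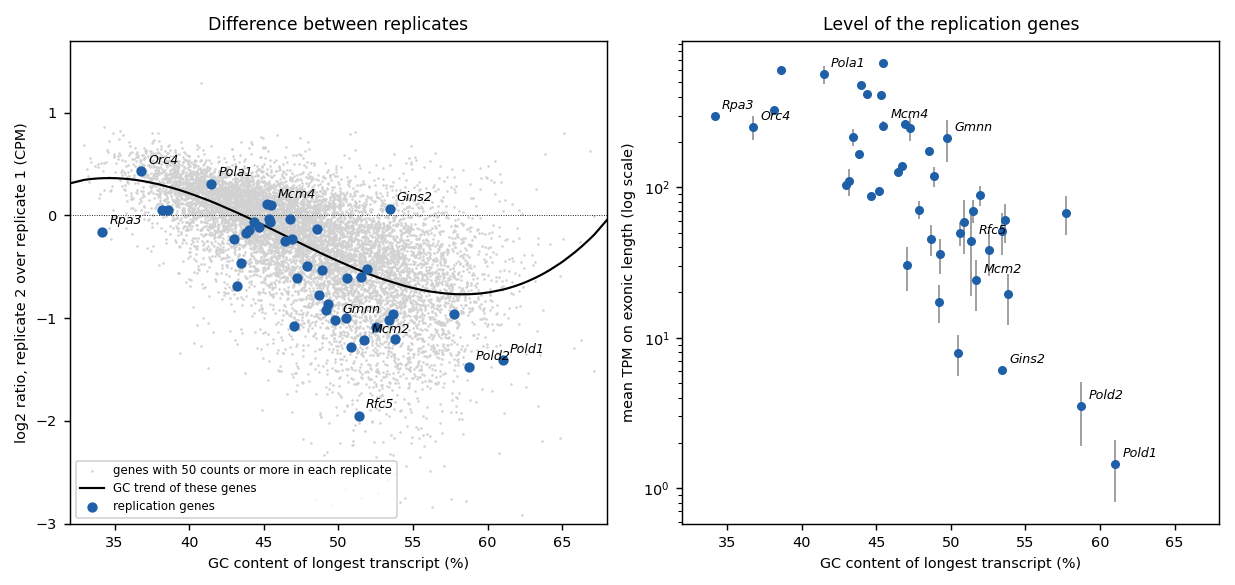
Left, log2 ratio of CPM (replicate 2 over replicate 1) against GC content of the longest transcript (%) for the genes that reached 50 counts in both libraries (grey), their fitted GC trend (line) and the 43 replication genes (blue). Right, mean TPM (log scale) of the 43 genes against GC content, with bars spanning both replicates. The 10 genes of lowest GC content have a median ratio of -0.15 and lie between 103 and 606 TPM, and the 10 of highest GC content have a median ratio of -1.05 and lie between 1.45 and 88.6 TPM.

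When the expected ratio was taken from the GC trend of all genes, a polynomial of degree 3, 26 of the 43 genes (60.5%) were lower in replicate 2 and 9 (20.9%) higher by the exact binomial test. Over the 14395 genes tested this way, which are not matched for counts, 21.8% were lower and 23.7% higher. The median of the 43 genes was -0.22 with the trend removed, against -0.01 for all genes tested, and their SD fell from 0.55 to 0.38 on the log2 scale. Rfc5 stayed the furthest, at -1.42. Pola2 (-0.84), Gins4 (-0.78), Rfc3 (-0.72) and Mcm2 (-0.66) followed among the genes that were called lower.

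Against library totals, TMM factors, DESeq2 factors and the GC trend alike, 20 of the 43 genes were lower in replicate 2 and 4, Orc4, Mcm4, Mcm8 and Pola1, were higher. Over all 14395 genes tested, again not matched for counts, 16.3% were lower under all 4 and 11% (1581 genes) were higher. The 20 were Cdc6, Cdt1, Gmnn, Mcm2, Mcm3, Mcm6, Mcm7, Mcm10, Cdc45, Gins3, Gins4, Pola2, Pole, Rfc2, Rfc3, Rfc4, Rfc5, Rpa1, Lig1 and Fen1. Cdc6, Cdt1, geminin and both Okazaki fragment genes are among them, and no ORC subunit is. Orc6 and Pold3 were lower against library totals and higher under the other 3 expectations. Orc2 and Prim1 turned from lower to higher with TMM and DESeq2 factors, Cdc7 and Rpa3 with DESeq2 factors, and Orc3 turned from higher to lower with the GC trend. Orc2, Mcm5, Gins1, Rfc1 and Rpa2 were lower against library totals but not called against the GC trend. The same held for Pold1 and Pold2, which had few counts.

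A list of 70 other genes of replication was examined in the same way, covering origin firing, fork protection, chromatin assembly, nucleotide supply and E2F factors. Its median was 58.0 TPM, and its genes ran from 0.713 to 2350 TPM. The 5 highest were Cul4b, a ubiquitin ligase scaffold of the pathway that removes Cdt1 (1924 and 2776 TPM), topoisomerase Top2a (1191 and 1269 TPM), the fork protection factor Tipin (1029 and 920 TPM), Rif1, which restrains origin firing (824 and 1025 TPM), and Dbf4, the activator of Cdc7 (810 and 946 TPM). Dbf4 mRNA thus exceeded that of its kinase partner Cdc7 in both replicates. The 5 lowest were Pold4, Recql4, Chtf18, E2f2 and Tonsl, at 0.713, 1.01, 2.33, 2.34 and 2.44 TPM on average. Tipin and its partner Timeless were far apart, since Timeless was at 12.7 and 5.17 TPM.

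Of the 70 genes, 40 were lower in replicate 2 and 16 higher by the exact binomial test against library totals, and 24 were lower and 24 higher against the GC trend. With TMM factors 24 were lower and 32 higher, and with DESeq2 factors 20 were lower and 36 higher. The shares over all genes under these 4 expectations are those given above, 45.7%, 21.8%, 30.7% and 26.1% for lower and 15.1%, 23.7%, 27.0% and 31.6% for higher, in the order of totals, GC trend, TMM and DESeq2. The 3 that differed most among those that reached 50 counts in both libraries were Rad9a, a subunit of the checkpoint clamp (228 and 72 counts, log2 ratio -1.43), Timeless (432 and 141, -1.39) and the RNase H2 subunit Rnaseh2a (183 and 65, -1.26).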

How the data were processed

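The authors ran featureCounts 1.5.2, as the header records, on paired fragments with the reverse-stranded setting, assigning them to transcripts of a long RNA annotation on mm10, so intronic fragments were included. The deposited values are raw counts per gene, and the deposited length column is the transcribed span. For its chromatin RNA the study states removal of rRNA reads with Bowtie2 2.3.2 and alignment to masked mm10 with STAR 2.4.2a, tools the processing notes also name, but for the mRNA libraries the aligner is not given in the sources used here.

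From the counts, TPM was computed on the union of exons of GENCODE M21 basic (same build), matched for 98.1% of genes and all 43 of those studied, as the value per replicate or the mean. Log2 ratios of CPM had 0.5 counts added. Exact binomial tests with Benjamini-Hochberg adjustment (threshold 0.05) cover counting error only and were checked on simulated data, using scipy 1.17.1, edgeR 4.0.16 and DESeq2 1.42.0. Every gene of the 43 could be named. Of the other 70, the rule took the 5 highest, the 5 lowest and the 3 with the largest ratio between replicates at 50 counts or more in each. Pole3 and Pole4 were named besides, as further subunits of polymerase epsilon. The genes, lists and tests were chosen with earlier results of these data known. Alternatives were other lengths, scalings, count filters, pseudocounts and single replicates. Count columns were matched to samples by names that differ from the labels by 1 letter.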

Additional observations from a re-analysis of the deposited data

How the results depend on the processing

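Over 82 results and 407 alternatives, 239 values stayed within the spread of the 2 replicates, which is wide for some genes, or for counts within 1.5 times, 151 moved beyond it and 17 reversed, all of these the order of a pair of genes. Of 20 pairs whose replicates did not overlap on exonic length, a comparison added after seeing the data, 8 reversed on span length, 3 on coding length and 6 in CPM, where no length enters. The log2 ratio on span length was -0.27 for Orc3 over Orc2, -1.25 for Orc5 over Orc4, -0.36 for Mcm5 over Mcm7, -0.34 for Gins1 over Gins3, -2.46 for Pola1 over Prim1, -1.95 for Prim2 over Pola2, -0.33 for Pole2 over Pole and -0.21 for Gmnn over Cdt1. On coding length it was -0.40 for Orc3 over Orc2, -0.79 for Orc5 over Orc4 and -0.061 for Rfc3 over Rfc5. In CPM it was -0.38 for Orc6 over Orc3, -0.087 for Orc3 over Orc2, -0.78 for Orc5 over Orc4, -1.30 for Pole2 over Pole, -1.62 for Rpa3 over Rpa1 and -1.12 for Rfc4 over Rfc1. The median level of 94.0 was 63.1 on span length, 69.8 in CPM and, added after seeing the data, 54.3 on coding length. Its ratio of 5.10 to the median of expressed genes was 4.67, 3.49 and 2.81 on the same scales, 17.0 against all genes with a count and 2.62 against genes at 5 TPM or more. The median over complexes of highest over lowest subunit, 14.7, ranged from 10.5 to 24.9 with 1 replicate left out and was 9.76 on span length, 9.77 on coding length and 12.7 in CPM, all added after seeing the data. Pola1's percentile among X-linked genes, 93.8, was 62.8 on span length, 96.1 in CPM and 84.7 on coding length. The median log2 ratio of -0.52 was -0.30 with TMM factors, -0.21 with DESeq2 factors and -0.22 with the GC trend removed. The share of promoters with an E2F word, 36.4%, was 20.5% before the start only, also added after seeing the data. The causes of these moves were not tested. Counts of genes that differ between replicates stayed within 1.5 times under each scaling and filter, although directions changed as given above. No pairing between conditions was possible because there is 1 group. Subunits of a complex were measured in the same libraries, but their order was not tested as paired. Depth limits genes of few counts, Pold1 and Pold2 among the 43.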
